A study of Homo sapiens with 10 samples.

Results

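Control cells of 2 knockdown experiments in HCT116, an established human colorectal cancer cell line, were set against each other. The study sequenced RNA from 10 libraries in 4 groups, and the 5 libraries from cells that carried the control hairpin (shNC) were taken by their labels: 3 libraries of shNC1, the controls of the TEX10 knockdown (TEX10_sh, 3 libraries), and 2 libraries of shNC2, the controls of the RELA (p65) knockdown (p65_sh, 2 libraries). All groups were HCT116 cells exposed to lentivirus for 24 h and kept in puromycin for 3 days, and the labels give both control groups the same genotype, shNC. TEX10_sh and p65_sh cells received hairpins against TEX10 and RELA in place of the control hairpin. The sequence of the control hairpin, the oxygen level, the medium and the cell density are not given in the sources used here. No source says whether the libraries of a group came from separate cultures, so p-values measure only the spread between these samples, which may be technical. The libraries of the 2 experiments carry separate series of library numbers, so that experiment and batch cannot be told apart.

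The gene groups that set shNC2 apart belong to well-known programs. When oxygen is low, prolyl hydroxylases (EGLN) stop marking the HIF alpha subunits for destruction by VHL, and the HIF complex switches on genes of glucose uptake, glycolysis, pH control and blood vessel growth through short hypoxia response elements in DNA. ATF4 is the transcription factor of the integrated stress response, made when amino acids run short or protein folding fails, and it raises genes of amino acid transport and synthesis, with its partner CHOP (DDIT3). Genes of mitosis rise as cells approach division and are held down in resting cells by repressors at the cell cycle genes homology region of their promoters.

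Transcript levels are given as CPM, read counts divided by a scaled library total and recomputed over all 10 libraries together, and differences as log2 of shNC2 over shNC1 on the log2(CPM + 0.5) scale, with the standard error (SE) and the limma p-value adjusted over all 17922 genes tested. A gene is called higher or lower when that adjusted p is under 0.01. Called higher in shNC2 were 2103 genes (11.7%), and called lower were 1830 (10.2%). The count of lower genes was 1080 without shNC2 replicate 1 and 1202 without shNC2 replicate 2, and that of higher genes was 1394 with no filter on low counts. With scaling by library totals alone, the share of calls that were higher fell from 53.5% to 38.8%. Most differences were small, with a median of 0.30 among the calls regardless of sign. At least 2-fold and called were 41 higher genes (0.229%) and 30 lower genes (0.167%). No gene at 5 CPM or more in one control group was under 0.1 CPM in the other.

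The control libraries held 28864069 to 43470678 reads, so that 3 reads, taken here as the floor of detection, stood for 0.0684 to 0.104 CPM; the floor covers counting error only. TEX10, the target of one knockdown, was at 70.4 to 74.5 CPM in shNC1 and 68.0 to 71.2 CPM in shNC2 against 30.9 to 32.0 CPM in TEX10_sh. RELA, the target of the other, was at 79.1 to 79.9 CPM in shNC1 and 92.8 to 104 CPM in shNC2 (log2 difference 0.30, limma adjusted p = 3.01e-05) against 30.1 to 31.6 CPM in p65_sh. The 15 markers of colorectal epithelium had a summed level of 3977 to 4103 CPM in shNC1 and 4598 to 4787 CPM in shNC2. Of these 11 could be tested, whereas CDX1, CEACAM5, LGR5 and ASCL2 were too low to test. Called higher were 5 of the 11 (45.5%) and called lower 1 (9.09%), beside 11.7% and 10.2% of all genes. Of 15 markers of fibroblasts, endothelium and immune cells, 4 had no read in any control library and 7 had at most 3. The sum of these markers was 49.1 to 51.9 CPM in shNC1 and 61.6 to 64.0 CPM in shNC2. Only 6 of them could be tested, of which 1 (16.7%) was called higher, beside 11.7% of all genes. It was CD68, a lysosomal protein used as a macrophage marker, at 4.09 to 4.81 CPM against 13.7 to 14.5 CPM. PTPRC, which defines white blood cells, was at most at 0.0453 CPM and was not tested.

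Promoter sequences are shown first, because the gene groups described below are known for short elements near their start sites. Windows from 250 bases before to 50 after each start were taken from RefSeq on GRCh38.p14, another build than the hg19 of the deposited values, and 35116 windows of 27305 genes were searched on both strands. The hypoxia response element core was searched as ACGTG or GCGTG, and ACGTG is also part of the E-box read by other factors. In the hypoxia list 38 of 50 genes had a window, and 50 of 57 windows (87.7%) held the core, compared with 48.4% of all windows. In the mitosis list 64.2% of windows held the same core, as did 68.1% in the ATF4 list, 63.2% in the glycolysis list and 61.1% in the S phase list. Genes with several start sites weigh more in these shares. By gene, with the core in any window, the share was 92.9% for glycolysis and 89.5% for the hypoxia list. It was 75.9% for ATF4, 72.1% for mitosis and 70.7% for S phase, against 52.4% of all genes with a window. The element bound by ATF4 together with C/EBP proteins was searched as TGATGNAA. In the ATF4 list 29 of 36 genes had a window, and 9 of 47 windows (19.1%) held the element, against 3.62% of all windows. By gene, 9 of these 29 (31%) held it, against 4.46% of all genes with a window. The core of the cell cycle genes homology region was searched as TTTGAA. In the mitosis list 43 of 49 genes had a window, and 34 of 53 windows (64.2%) held TTTGAA. It was in 15.2% of all windows and 1.85% of those of the S phase list. By gene, 31 of the 43 mitosis genes (72.1%) held it, against 18.2% of all genes with a window. A match is a description of the letters and no evidence of binding.

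Shown are the 250 bases before the start site, 5′ to 3′ on the strand of the gene. The genes are 3 markers of the hypoxia list, 2 genes of the ATF4 list and 1 mitosis gene. Each window held a match to the element searched for the gene's own list, and only that match is in capitals. The hypoxia core also occurs, in small letters, in the bases shown for CHAC1, ASNS and CCNF. They lie at chr19:8363905-8364154 (ANGPTL4, plus strand), chr4:185396591-185396840 (ANKRD37, plus), chr2:86441121-86441370 (KDM3A, plus), chr15:40953221-40953470 (CHAC1, plus), chr7:97872409-97872658 (ASNS, minus) and chr16:2429197-2429446 (CCNF, plus). KDM3A and ASNS have 2 windows each, of which the first with a match is shown.
ANGPTL4: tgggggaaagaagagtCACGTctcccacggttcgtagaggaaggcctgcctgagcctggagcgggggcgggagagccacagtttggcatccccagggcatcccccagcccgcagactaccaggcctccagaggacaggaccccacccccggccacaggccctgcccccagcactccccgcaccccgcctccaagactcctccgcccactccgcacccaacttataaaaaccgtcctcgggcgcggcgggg
ANKRD37: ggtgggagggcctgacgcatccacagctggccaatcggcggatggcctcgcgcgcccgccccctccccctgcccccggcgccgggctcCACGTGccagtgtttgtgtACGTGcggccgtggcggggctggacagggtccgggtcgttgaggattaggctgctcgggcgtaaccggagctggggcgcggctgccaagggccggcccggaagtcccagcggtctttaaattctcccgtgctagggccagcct
KDM3A: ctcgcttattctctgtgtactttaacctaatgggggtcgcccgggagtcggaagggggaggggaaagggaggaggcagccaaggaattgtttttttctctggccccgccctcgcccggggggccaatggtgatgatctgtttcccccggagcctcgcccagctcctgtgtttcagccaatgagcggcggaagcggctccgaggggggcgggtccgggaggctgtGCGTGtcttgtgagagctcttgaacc
CHAC1: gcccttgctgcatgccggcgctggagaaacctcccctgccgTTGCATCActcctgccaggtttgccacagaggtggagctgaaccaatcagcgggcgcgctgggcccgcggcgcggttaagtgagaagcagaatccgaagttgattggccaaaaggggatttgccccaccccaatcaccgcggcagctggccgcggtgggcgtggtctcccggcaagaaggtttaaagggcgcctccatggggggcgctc
ASNS: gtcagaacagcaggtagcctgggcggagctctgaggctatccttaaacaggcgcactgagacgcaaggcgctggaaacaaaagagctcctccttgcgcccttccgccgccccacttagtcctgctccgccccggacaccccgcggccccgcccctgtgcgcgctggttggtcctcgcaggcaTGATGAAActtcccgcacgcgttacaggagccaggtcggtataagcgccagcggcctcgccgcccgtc
CCNF: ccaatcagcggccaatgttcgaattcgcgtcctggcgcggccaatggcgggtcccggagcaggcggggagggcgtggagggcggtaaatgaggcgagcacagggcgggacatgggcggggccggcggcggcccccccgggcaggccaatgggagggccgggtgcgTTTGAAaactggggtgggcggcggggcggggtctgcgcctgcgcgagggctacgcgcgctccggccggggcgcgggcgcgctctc
The hypoxia core began 234 bases before the start in ANGPTL4 and 26 bases before it in KDM3A. ANKRD37 held 3 matches, of which 2 overlap on opposite strands at 162 and 161 bases before the start, with another at 143. The ATF4 element lay 209 bases before the start in CHAC1, on the opposite strand, and 68 bases before it in ASNS, and TTTGAA lay 85 bases before the start in CCNF.

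Most hypoxia response genes were higher in shNC2. Of 50 listed genes outside glycolysis 48 could be tested, 37 were called higher and 1 lower, beside 11.7% and 10.2% of all genes, and 11 were at least 2-fold higher, beside 0.229%. The median log2 difference of the tested members was 0.53, against -0.002 for all genes. In 42 members both shNC2 libraries lay above all 3 shNC1 libraries, which 28% of all genes did, and in 2 they lay below, which 27.4% did.

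ANGPTL4 (ENSG00000167772), a secreted inhibitor of lipoprotein lipase, was at 10.1, 8.72 and 10.6 CPM in the shNC1 libraries and at 80.2 and 90.4 CPM in the shNC2 libraries. Its log2 difference was 3.06 (SE 0.08, limma adjusted p = 7.77e-16), an 8.32-fold rise. ANKRD37, an ankyrin repeat protein induced by hypoxia, was at 5.12, 5.33 and 5.79 CPM in shNC1 and at 30.4 and 34.2 CPM in shNC2, a log2 difference of 2.47 (SE 0.10, limma adjusted p = 3.04e-13). In both genes the highest shNC1 library stayed far below the lowest shNC2 library. NDRG1, a stress-induced growth regulator, rose from 215, 204 and 242 CPM to 701 and 765 CPM, by 1.73 on the log2 scale (SE 0.06, limma adjusted p = 1.36e-13). KDM3A, an oxygen-dependent histone H3 lysine demethylase, was nearly equal within groups, at 75.3, 74.7 and 77.5 CPM in shNC1 and 187 and 186 CPM in shNC2, with a log2 difference of 1.29 (SE 0.05, limma adjusted p = 2.94e-13). CA9, the cell surface carbonic anhydrase that is a standard marker of hypoxic tumor cells, was low in both groups, at 0.748, 0.44 and 0.716 CPM against 5.13 and 6.27 CPM. Its log2 difference of 2.45 (SE 0.16, limma adjusted p = 4.62e-10) is reduced by the pseudocount at such levels.

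**Figure D1:**
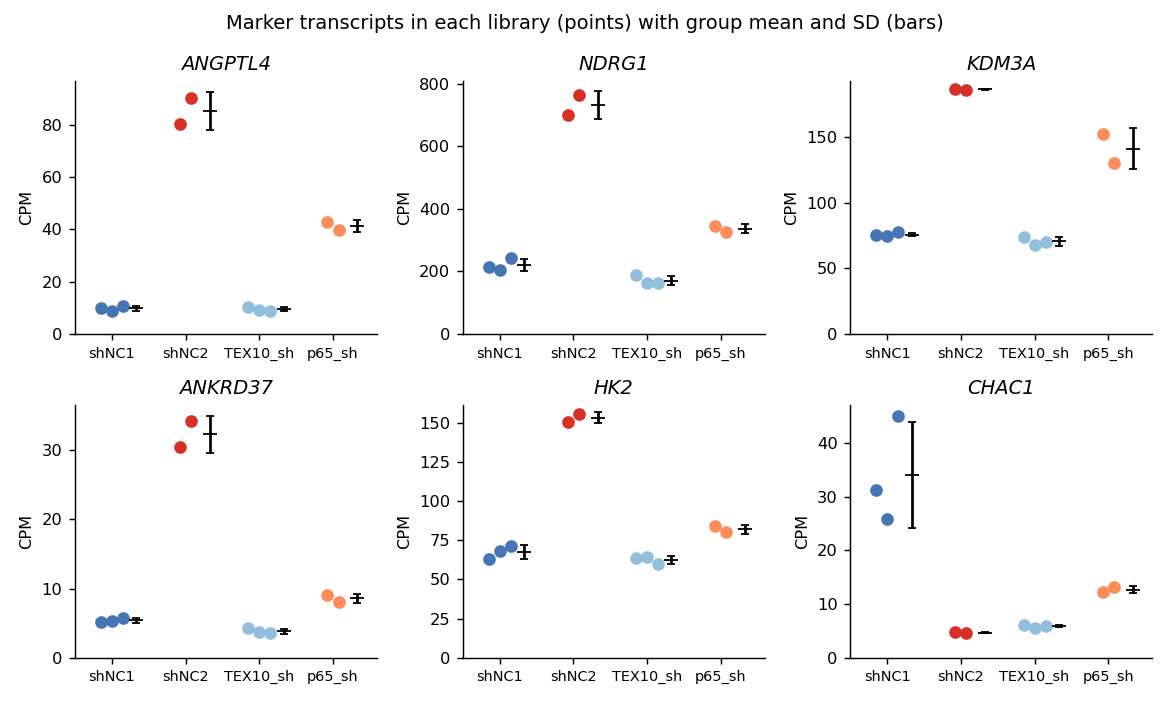
Levels of 6 marker transcripts in CPM (vertical axes, each from 0) in the libraries of the 4 groups, with points for libraries and a bar for group mean and SD. In the 5 hypoxia and glycolysis markers both shNC2 points lie above all shNC1 points, as with ANGPTL4 at 80.2 and 90.4 CPM against at most 10.6 CPM, whereas CHAC1 lies at 4.65 to 4.70 CPM in shNC2 and at 25.9 to 45.2 CPM in shNC1.

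Other rises of the list fell on several functions. Among enzymes that modify collagen, P4HA1, a prolyl hydroxylase subunit, rose from 52.8 ± 5.34 CPM (SD, n = 3) to 138 ± 1.52 CPM (SD, n = 2), a log2 difference of 1.38, and P4HA2 (0.53), PLOD1 (0.52) and PLOD2 (0.72) rose as well. BNIP3 and BNIP3L, which mark mitochondria for autophagy, rose by 1.04 and 0.84 on the log2 scale. HILPDA, a lipid droplet protein, rose by 1.23. INSIG2, which holds back cholesterol synthesis, went from 20.1 ± 0.896 CPM to 45.2 ± 0.657 CPM, a log2 difference of 1.15 (SE 0.05, limma adjusted p = 3.43e-12). ADM, the vasodilator adrenomedullin, went from 42.8 ± 0.919 CPM to 87.5 ± 3.77 CPM, a log2 difference of 1.02 (SE 0.04). CXCR4, a chemokine receptor, rose from 1.10 ± 0.262 CPM to 4.65 ± 1.04 CPM. MIR210HG, the host transcript of the hypoxia-induced miR-210 and no member of the list, was among the 10 largest rises of all genes at 3.68 ± 0.207 CPM against 10.8 ± 0.383 CPM, a log2 difference of 1.43 (SE 0.11, limma adjusted p = 1.97e-09).

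The rise was not shared by every known target. VEGFA, the main growth factor of blood vessels, was at 72.7, 72.9 and 80.6 CPM in shNC1 and 85.6 and 91.2 CPM in shNC2, a log2 difference of 0.23 (SE 0.04, limma adjusted p = 4.51e-04) that missed the threshold without shNC2 replicate 2 (adjusted p = 0.018). FAM13A was the 1 member called lower, at 27.8 to 29.3 CPM against 23.2 to 24.8 CPM, a log2 difference of -0.26 that was also lost without shNC2 replicate 2 (adjusted p = 0.0315). SIAH2, a ubiquitin ligase, had a log2 difference of 0.10 (adjusted p = 0.146) and KLF7 one of -0.10 (adjusted p = 0.139), and neither passed the test.

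Genes of oxygen sensing itself were called in both directions. The transcript of HIF1A, the subunit that oxygen controls at the protein level, was lower in shNC2, at 191, 184 and 193 CPM against 161 and 154 CPM, a log2 difference of -0.26 (SE 0.04, limma adjusted p = 1.27e-05). EPAS1, which encodes the other main alpha subunit, was at 56.2 to 58.4 CPM against 59.1 to 60.2 CPM and did not pass the test (log2 difference 0.07, adjusted p = 0.229). The prolyl hydroxylases EGLN3 and EGLN1, which are themselves HIF targets, were higher. EGLN3 rose from 8.99, 8.57 and 9.96 CPM to 21.7 CPM in both shNC2 libraries (2.3-fold, limma adjusted p = 6.65e-10), and EGLN1 rose from 64.5 ± 1.62 CPM to 102 ± 2.13 CPM (log2 difference 0.66, SE 0.04). VHL was at 75.9 to 81.3 CPM against 64.2 to 69.5 CPM, a log2 difference of -0.23 (SE 0.04, limma adjusted p = 4.23e-04) that missed the threshold without shNC2 replicate 1 (adjusted p = 0.0294). HIF1AN, the asparagine hydroxylase that blocks coactivator binding, was at -0.07 (adjusted p = 0.0703), or -0.11 and called with library totals. Among 15 of 16 members tested, 3 were called higher, beside 11.7% of all genes, of which the third was RBX1 (0.28, adjusted p = 0.0263 without shNC2 replicate 1), and 4 were called lower, beside 10.2%, which also took in the coactivators EP300 (-0.21) and CREBBP (-0.24).

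Most genes of glucose uptake and glycolysis were higher in shNC2. All 31 listed genes were tested, 21 were called higher and 2 lower, beside 11.7% and 10.2% of all genes, with a median log2 difference of 0.38 and 6 genes at least 2-fold higher, beside 0.229%. SLC2A3, a high-affinity glucose transporter, was at 16.3, 14.2 and 18.8 CPM in shNC1 and 58.0 and 62.3 CPM in shNC2, a log2 difference of 1.85 (SE 0.09, limma adjusted p = 3.46e-12). SLC2A1, the main transporter of most cells, rose less, from 348 ± 8.08 CPM to 411 ± 19.5 CPM (0.24, SE 0.04, limma adjusted p = 2.53e-05). HK2, the inducible hexokinase that commits glucose to the pathway, was at 62.8, 67.9 and 71.4 CPM against 151 and 156 CPM, a log2 difference of 1.18 (SE 0.05, limma adjusted p = 3.89e-13), and HK1, the constitutive hexokinase, was at 0.28.

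Past the first step, GPI rose from 569.8 ± 6.02 CPM to 995 ± 54.2 CPM (0.80, SE 0.04). Of the phosphofructokinase genes PFKP was higher (0.44) and PFKM did not pass the test (-0.02, adjusted p = 0.604). PFKFB4, which makes and removes an activator of phosphofructokinase, rose from 35.7 ± 0.539 CPM to 93.7 ± 4.42 CPM (1.38, SE 0.06, limma adjusted p = 4.32e-13). The aldolases ALDOC (1.18) and ALDOA (0.64), then TPI1 (0.38), GAPDH (0.46), PGK1 (0.74), PGAM1 (0.38), the enolases ENO2 (1.15) and ENO1 (0.51) and the pyruvate kinase PKM (0.31) were all called higher. ENO2, the neuronal enolase, went from a mean of 105 CPM to 233 CPM, and the abundant ENO1 from 2292 CPM to 3274 CPM. ENO3, the muscle enolase, was lower, at 13.9 ± 0.474 CPM against 10.4 ± 0.58 CPM (-0.40), and lost its call without shNC2 replicate 1 (adjusted p = 0.0115).

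At the branch to lactate, LDHA, which turns pyruvate into lactate, was at 963, 959 and 998 CPM against 1537 and 1499.9 CPM, a log2 difference of 0.64 (SE 0.04, limma adjusted p = 2.27e-10). LDHB, the form that favors the reverse reaction, did not pass the test (-0.06, adjusted p = 0.145). SLC16A3, the lactate exporter of glycolytic cells, rose by 0.39, and SLC16A1, the other monocarboxylate carrier, was at -0.15 with a call lost without either shNC2 library (adjusted p = 0.0236 and 0.0299). PDK1, which shuts the entry of pyruvate into mitochondria, was at 20.3, 21.2 and 21.5 CPM against 51.3 and 47.7 CPM (1.22, SE 0.07, limma adjusted p = 2.33e-11), and PDK3 rose by 0.52. ARRDC4, which answers to glucose through MondoA, rose from 11.3 ± 0.931 CPM to 23.4 ± 0.167 CPM (1.01, SE 0.08), whereas TXNIP, the best-known gene of that pathway, was at most at 0.0565 CPM in any library and was not tested. MLXIPL, which encodes the related sensor ChREBP, was called lower at -0.21, but not without shNC1 replicate 1 (adjusted p = 0.014), shNC1 replicate 3 (0.01) or shNC2 replicate 1 (0.16).

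Mitosis genes were higher in shNC2. All 49 listed were tested and called higher, beside 11.7% of all genes, with a median log2 difference of 0.66 and a range from 0.13 to 0.91. At least 1.5-fold higher were 33 of them, beside 246 of all 17922 genes. In all 49 both shNC2 libraries lay above all shNC1 libraries, beside 28% of all genes. None was called lower (0 also at an unadjusted p under 0.05, and 0 by edgeR and DESeq2), and none reached 2-fold. CCNF, an F-box cyclin of the later cell cycle, was at 57.3, 60.2 and 52.5 CPM in shNC1 and 106 and 107 CPM in shNC2 (0.91, SE 0.05, limma adjusted p = 8.75e-12). KIF20A, a kinesin of cytokinesis, was at 76.8, 80.9 and 75.5 CPM against 136 and 139 CPM (0.82, SE 0.04, limma adjusted p = 3.08e-12). ANLN, an actin binder of the contractile ring, rose from 179 ± 4.58 CPM to 311 ± 2.84 CPM (0.80), and UBE2C, the ubiquitin carrier of the anaphase-promoting complex, from 62.5 ± 1.70 CPM to 109.8 ± 1.40 CPM (0.81). MKI67, the proliferation antigen, was at 703, 759 and 688 CPM against 1005 and 1013 CPM (0.49, SE 0.04, limma adjusted p = 2.03e-09). The kinases CDK1 (0.71), BUB1 (0.74), AURKA (0.60) and PLK1 (0.40), the phosphatase CDC25C (0.91), the cyclin CCNB1 (0.37), the separase ESPL1 (0.86) and TOP2A (0.64), which untangles DNA, covered entry to mitosis through its exit.

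Most DNA replication and S phase genes were also higher. Of 48 listed and tested, 32 were called higher, beside 11.7% of all genes, and none lower, beside 10.2% (1 at an unadjusted p under 0.05, and 0 by edgeR and DESeq2), with a median log2 difference of 0.25 and none of them 1.5-fold. PRIM2, a primase subunit, was at 35.4 to 37.6 CPM against 50.1 to 50.4 CPM (0.47, SE 0.05, limma adjusted p = 9.88e-08). RRM2, the regulated subunit of ribonucleotide reductase, rose from 239 ± 16.8 CPM to 327 ± 10.4 CPM (0.45, SE 0.04, limma adjusted p = 5.18e-08), LIG1, the replicative DNA ligase, by 0.36, and PCNA, the sliding clamp, by 0.29. Of the helicase subunits MCM7 was called higher (0.25), while MCM2 (0.11, adjusted p = 0.0989) and MCM3 (0.04, adjusted p = 0.523) did not pass the test. MCM2 was called without shNC1 replicate 2 (adjusted p = 0.00201), and MCM3 was at -0.02 without shNC1 replicate 3. Within shNC1 the spread followed one pattern, with the list mean highest in replicate 2 (0.109 above the group mean on the log2 scale) and lowest in replicate 3 (-0.105). The count of 32 fell to 19 without shNC2 replicate 1 and to 18 with no filter on low counts.

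Genes that set the G1 phase were called higher more often than lower, with a median log2 difference of 0.18, and CCND1 was the 1 called lower. CCND1, the cyclin that drives entry from G1, was at 564, 584 and 562 CPM against 472 and 477 CPM (-0.26, SE 0.03, limma adjusted p = 1.23e-06). CDKN2D and CDKN2C, inhibitors of the CDK partners of CCND1, rose from 8.68 ± 0.913 CPM to 18.8 ± 0.187 CPM (1.08) and from 6.56 ± 0.709 CPM to 13.3 ± 0.419 CPM (0.97). CDKN1A, the inhibitor p21, was at 224, 231 and 234 CPM against 275 and 282 CPM (0.28, SE 0.03, limma adjusted p = 2.17e-06), and RB1, the brake on E2F, rose by 0.31. CDK4 (0.06, adjusted p = 0.223) and CDK6 (-0.08, adjusted p = 0.0641) did not pass the test, although CDK6 did with library totals (-0.12, adjusted p = 0.00729). Of 15 genes tested 8 were called higher and 1 lower, beside 11.7% and 10.2% of all genes.

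**Figure D2:**
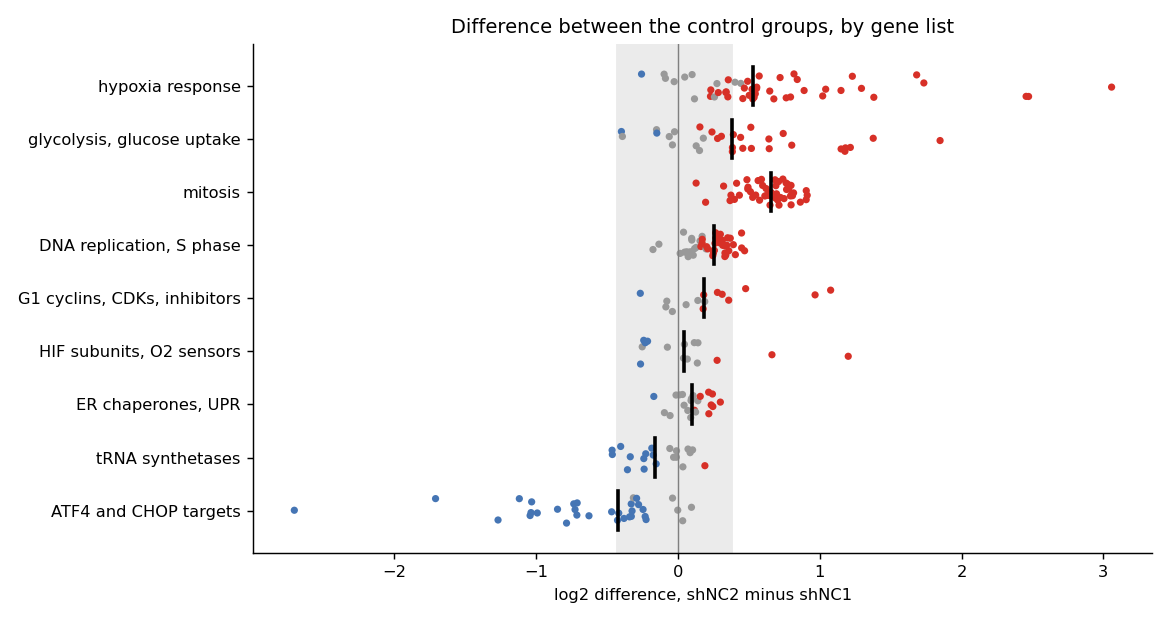
Log2 difference between shNC2 and shNC1 (horizontal axis) of the tested members of 9 gene lists, 1 point a gene, with the median as a black bar and the range from the 5th to the 95th percentile of all genes shaded (-0.43 to 0.38). Red points were called higher, blue points lower and gray points neither; mitosis genes lie between 0.13 and 0.91 in red, and ATF4 and CHOP targets lie mostly to the left of 0 with a median of -0.43.

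ATF4 and CHOP targets were lower in shNC2 than in shNC1. Of 36 listed genes 33 were tested, 28 were called lower, beside 10.2% of all genes, 7 of them at least 2-fold, beside 0.167%, and none was called higher (0 also at an unadjusted p under 0.05, and 0 by edgeR and DESeq2). The median log2 difference was -0.43, and both shNC2 libraries lay below all shNC1 libraries in 29 members, beside 27.4% of all genes. CHAC1 (ENSG00000128965), which degrades glutathione and is among the most responsive genes of this pathway, was at 31.2, 25.9 and 45.2 CPM in shNC1 and 4.70 and 4.65 CPM in shNC2, a log2 difference of -2.70 (SE 0.14, limma adjusted p = 8.35e-12) or 6.51-fold lower. SLC7A11, the cystine importer, was at 117, 106 and 152 CPM against 37.4 and 37.5 CPM (-1.71, SE 0.09, limma adjusted p = 9.35e-12). In both genes shNC1 replicate 3 was the highest library and the 2 shNC2 libraries were nearly equal.

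Other members called lower included genes of amino acid synthesis and transport. ASNS, asparagine synthetase, was at 201, 191 and 255 CPM against 99.9 and 96.7 CPM (-1.12, SE 0.07, limma adjusted p = 2.34e-10). The serine pathway enzymes PSAT1 and PHGDH fell by 0.99 and 0.71 on the log2 scale, PHGDH from 147 ± 4.88 CPM to 89.6 ± 3.1 CPM. SLC6A9, a glycine transporter, fell by 1.27, SLC7A5, which carries large neutral amino acids, by 0.72, and its partner chain SLC3A2 by 0.63. PCK2, the mitochondrial PEP carboxykinase, fell by 1.04 and SESN2, an inhibitor of mTORC1, by 0.85. ATF4 itself was at 465, 448 and 507 CPM against 336 and 348 CPM (-0.47, SE 0.04, limma adjusted p = 2.49e-08). TRIB3, a pseudokinase that feeds back on ATF4, was at 49.2, 48.2 and 70.6 CPM against 26.6 and 26.9 CPM (-1.03, SE 0.10). DDIT3, the stress factor CHOP, was at 22.7, 19.1 and 37.4 CPM against 12.3 and 11.8 CPM (-1.04, SE 0.16, limma adjusted p = 5.32e-05). PPP1R15A, which ends the stress response by restoring translation, was at -0.04 (adjusted p = 0.656) and ALDH18A1, of proline synthesis, at 0.03, and neither passed the test. The sign of PPP1R15A changed without shNC1 replicate 3 (0.00492) or shNC2 replicate 1 (0.0411), and that of ALDH18A1 with library totals (-0.00619).

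The cytosolic aminoacyl-tRNA synthetases, many of which ATF4 also raises, were also called lower more often than higher. Of 20 tested 11 were called lower, beside 10.2% of all genes, with a list median of -0.16, led by CARS and MARS at -0.46 each, AARS at -0.40 and GARS at -0.36, and DARS was the 1 called higher (0.19, limma adjusted p = 2.94e-04). Of 22 endoplasmic reticulum chaperone and unfolded protein response genes 8 were called higher and 1 lower, beside 11.7% and 10.2% of all genes, with a median of 0.10, MANF leading at 0.30. The 1 lower was XBP1, the response's transcription factor, at -0.17, whose call was lost without shNC1 replicate 1 (adjusted p = 0.0146), shNC2 replicate 1 (0.0446) or shNC2 replicate 2 (0.0257).

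**Figure D3:**
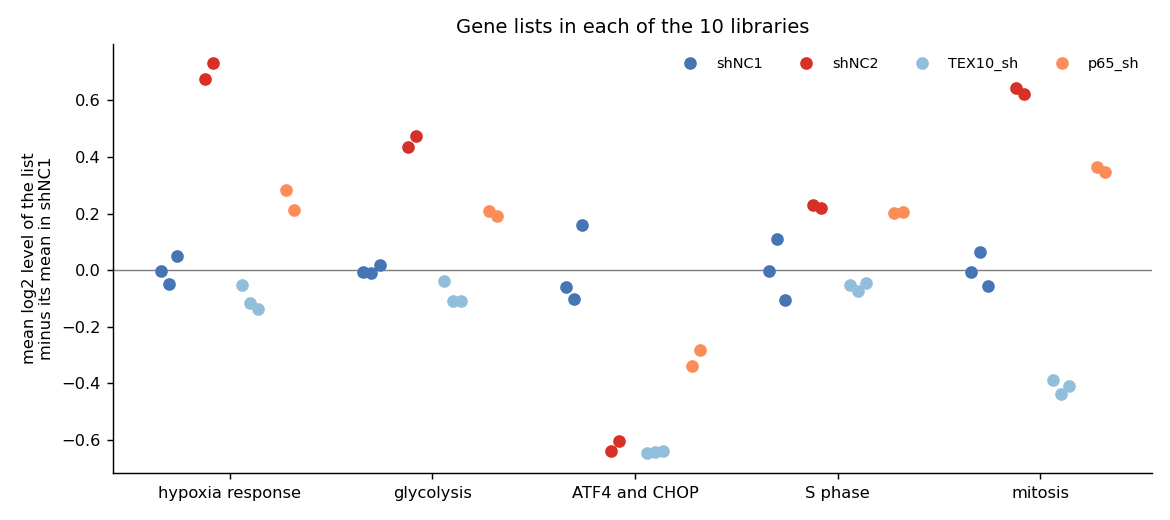
Mean log2 level of 5 gene lists in each of the 10 libraries (points, colored by group) after subtracting the list's mean in shNC1. The shNC2 libraries lie at 0.67 and 0.73 for hypoxia genes, 0.65 and 0.62 for mitosis genes and -0.64 and -0.60 for ATF4 and CHOP targets, and the 3 TEX10_sh libraries lie near shNC2 only in the last of these, at -0.65 to -0.64.

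Read library by library, the lists kept the control groups apart. The mean of the hypoxia list, as a log2 difference from its shNC1 mean, was between -0.047 and 0.049 in shNC1 and at 0.675 and 0.730 in shNC2. For glycolysis it was between -0.011 and 0.017 against 0.436 and 0.474. For ATF4 and CHOP targets the shNC1 libraries spread from -0.102 in replicate 2 to 0.160 in replicate 3, with shNC2 at -0.639 and -0.605. For mitosis genes the shNC1 libraries lay from -0.057 to 0.064 and the shNC2 libraries at 0.645 and 0.623. For S phase genes the groups lay closer, with a wide spread in shNC1. The shNC1 libraries were at -0.004, 0.109 and -0.105 and the shNC2 libraries at 0.230 and 0.220.

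Knockdown cells of the same experiments were compared in the same way. Their libraries entered the scaling and the estimate of spread of the control comparison, but not the means it compares. The contrast of p65_sh with TEX10_sh joins groups that differ in the gene silenced as well as in the experiment, so the values are set side by side as a description. Called higher in p65_sh were 17.1% of all genes and called lower 19.6%. Of the 2103 genes higher in shNC2, 1084 were also higher in p65_sh (51.5% of the first list and 35.4% of the second), and of the 1830 lower genes 930 were also lower (50.8% and 26.4%). In the hypoxia list 28 members were higher and 5 lower in p65_sh, with a median of 0.28, and 27 were higher in both comparisons. ANGPTL4 was at 10.3, 9.04 and 8.81 CPM in TEX10_sh and 42.9 and 39.7 CPM in p65_sh, NDRG1 at 188, 162 and 161 CPM and 347 and 327 CPM, and ANKRD37 at 4.21, 3.64 and 3.52 CPM and 9.03 and 8.10 CPM. In all of them p65_sh lay above TEX10_sh and below shNC2.

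In glycolysis 17 members were higher and 4 lower in p65_sh, among the latter SLC2A1 (log2 difference -0.49, against 0.24 in the controls). Mitosis genes were higher in 48 of 49, with a median of 0.80, and CDC25B, a CDK-activating phosphatase, was the 1 called lower (-0.16, against 0.20 in the controls). Relative to shNC1, the mean of the mitosis list was at -0.388, -0.438 and -0.410 in TEX10_sh and at 0.363 and 0.347 in p65_sh. The median of 0.80 thus takes in TEX10_sh levels below shNC1, and p65_sh lay below shNC2 (0.645 and 0.623). ATF4 and CHOP targets went the other way, with 18 higher and 2 lower in p65_sh and a median of 0.29, and 16 of the 28 that were lower in shNC2 were higher in p65_sh. CHAC1 was at 6.13, 5.62 and 5.96 CPM in TEX10_sh and 12.2 and 13.2 CPM in p65_sh, so that among the 4 groups it was highest in shNC1. ASNS was at 88.7, 87.5 and 84.8 CPM in TEX10_sh and at 166 and 167 CPM in p65_sh, between the levels of shNC2 and shNC1.

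**Figure D4:**
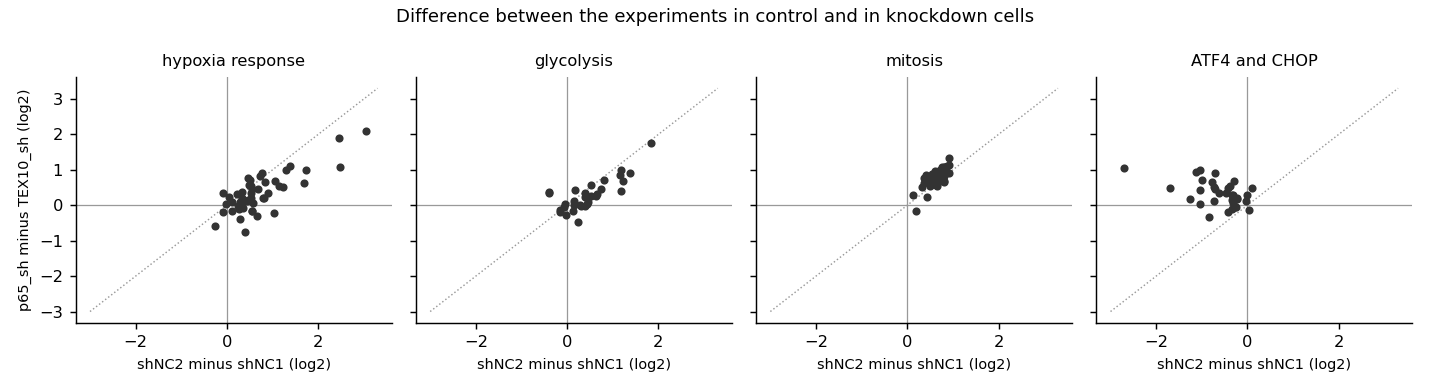
Log2 difference of shNC2 minus shNC1 (control cells, horizontal axes) against p65_sh minus TEX10_sh (knockdown cells, vertical axes) for 4 gene lists, 1 point a gene. The line of equal difference is dotted, and the groups of the vertical axes differ in the gene silenced as well as in the experiment. Hypoxia, glycolysis and mitosis genes lie mostly to the upper right, and ATF4 and CHOP targets lie mostly left of 0 with 18 of 33 called higher in p65_sh than in TEX10_sh.

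The 10 largest rises, counted among genes averaging 5 CPM or more, included ANGPTL4, ANKRD37, SLC2A3, NDRG1, CD68, MIR210HG and IL1RAP, a subunit of the interleukin-1 receptor, which rose from 4.44 ± 0.112 CPM to 13.1 ± 1.01 CPM (1.46). HSPA1A, an inducible heat shock protein, was among them at 1.42, and its reads are uncertain because HSPA1B is a nearly identical copy. The remaining 2 were RN7SL1 and RN7SL2, near-identical genes of the 7SL RNA of the signal recognition particle, which has no poly(A) tail. RN7SL2 was at 14.8, 13.5 and 10.1 CPM in shNC1 and 150.2 and 137 CPM in shNC2 (3.46, SE 0.51, limma adjusted p = 2.63e-05), and DESeq2 gave no adjusted p for it. RN7SL1 (2.71) lost its call with no filter on low counts (adjusted p = 0.0128). TEX10_sh replicate 3 stood apart from its replicates in RN7SL2, at 106 CPM against 11.7 and 13.5 CPM, while its ANGPTL4 level of 8.81 CPM was next to 10.3 and 9.04 CPM. The part of 7SL RNA capture in the other results was not tested.

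Among the 10 largest falls were CHAC1, SLC7A11, SLC6A9 and ASNS of the ATF4 list. LONRF2, a RING finger protein, was at 20.3, 19.4 and 20.8 CPM in shNC1 and 4.21 and 4.05 CPM in shNC2 (-2.16, SE 0.07, limma adjusted p = 5.39e-15). KIAA1199, now named CEMIP and known for the breakdown of hyaluronan, went from 41.9 ± 1.10 CPM to 15.5 ± 1.64 CPM (-1.41), and KRT23, an epithelial keratin, from 16.2 ± 0.504 CPM to 6.02 ± 0.896 CPM (-1.36). SLC16A6, a carrier of the monocarboxylate family, went from 30.9 ± 1.88 CPM to 13.1 ± 1.24 CPM (-1.21).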

How the data were processed

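Poly(A) RNA captured on magnetic beads from HCT116 cells was sequenced with a TruSeq kit, whose counting strand is not given in the sources used here. Per the submitters' processing notes, reads were aligned to hg19 with STAR 2.4.2a and processed with RSEM 1.2.29 and edgeR 3.8.5. The authors deposited CPM values of 57820 genes per library, scaled separately in the 2 experiments. Here every deposited CPM value was turned back into a whole number of reads (100% within 0.01 of a whole number), and 10 libraries were rescaled together with TMM. Library depth was 28606464 to 44658105 reads, so that 1 read was worth 0.0226 to 0.0351 CPM.

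Genes with enough reads (edgeR 4.0.16 filter, minimum count 10, minimum total 15) were tested with limma 3.58.1 in R 4.3.3 on log2(CPM + 0.5), in 1 fit of 4 groups with 6 residual degrees of freedom and an intensity trend, and p-values were adjusted by Benjamini-Hochberg with a threshold of 0.01. Because the deposited unit is not counts, count tests on the recovered reads (edgeR quasi-likelihood, DESeq2 1.42.0) were alternatives, next to other scalings, pseudocounts, filters, thresholds, GC and length correction, a replicate block and leaving out each control library. The procedure was tested on simulated data. The members and the 22 gene lists (510 genes, of which PECAM1 is not analysed here) were chosen with earlier results of these data known.

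Named genes are the 6 markers, 19 fixed genes, up to 6 called per direction and 4 uncalled of each main list, up to 3 per direction of other lists, and the 10 largest rises and falls with a mean of at least 5 CPM and no overlap. A further 35 genes were named after their values were seen, and a few that the rule names are not reported here.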

Additional observations from a re-analysis of the deposited data

Results flagged for a closer look

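The difference between the experiments was not the same size in control cells and in knockdown cells for the 6 marker genes, by limma's test of the difference of differences (shNC2 minus shNC1, less p65_sh minus TEX10_sh), a contrast added after the data were seen. On the log2 scale it was 0.972 for ANGPTL4, 1.392 for ANKRD37, 0.7504 for NDRG1, 0.3014 for KDM3A and 0.7885 for HK2, so that these genes differed more between the control groups (limma adjusted p of 0.00266 for KDM3A and smaller for the others). For CHAC1 it was -3.745, because CHAC1 was lower in shNC2 than in shNC1 and higher in p65_sh than in TEX10_sh. The 6 markers were picked as genes that separate the control groups, which favors a larger difference there. The p-values above do not allow for that choice, so they are no support for a larger difference. The knockdown cells differ in the silenced gene as well, and the part of either was not tested. Dixon's rule for a library far from its group was not applied, since groups of 2 or 3 libraries are too small for it.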

How the results depend on the processing

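Among 167 named genes that were called, none changed direction under any alternative. The call was lost in 16 when a control library was left out, and in 9 under another scaling, test, filter or pseudocount. Many of these genes were named for a small adjusted p or a large difference, so their stability says little about the other calls. The genes that changed sign had not been called. When a library was left out, MLX ranged from -0.0264 to 0.000936, PPP1R15A from -0.104 to 0.0411 and MCM3 from -0.0219 to 0.0867. With library totals MCM3 was at -0.000334 and ALDH18A1 at -0.00619. The cause was not tested.

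Leaving out 1 control library gave 1410 to 1948 higher and 1080 to 1571 lower genes, with the lower calls fewest without shNC2 replicate 1 (1080) and replicate 2 (1202). It gave 0 to 1 lower hypoxia genes (0 without shNC2 replicate 2), 0 to 2 lower glycolysis genes (0 without shNC2 replicate 1), 19 to 36 higher S phase genes (19 without shNC2 replicate 1) and 0 to 1 lower S phase genes (1 without shNC1 replicate 3). With no filter on low counts, 1394 genes and 18 S phase genes were higher. At an adjusted p under 0.05, 2796 genes and 1 S phase gene were lower. A fold of at least 1.5 left 246 higher and 285 lower genes in the controls, 680 and 698 in the knockdown cells, and 19 hypoxia, 10 glycolysis and 0 S phase genes higher with 0 hypoxia and 0 glycolysis genes and 15 ATF4 targets lower. A fold of at least 2 left 41 and 30, 98 and 116, and 11 hypoxia, 6 glycolysis, 0 S phase and 0 mitosis genes higher with 0 hypoxia and 0 glycolysis genes and 7 ATF4 targets lower.

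With the replicate block 1908 genes were higher and 1617 lower, and no named call was lost. Correlations of deviations between same-numbered libraries were small (-0.0119 to 0.0375). Deviations within groups of 2 or 3 libraries are bound to each other and hold counting error. These values therefore cannot settle whether the numbers pair samples. With 3 and 2 libraries a group, and experiment and batch confounded, small differences are the least certain.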

Other observations

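Counts for gene groups outside the 5 main ones are read beside the shares of all genes called higher (11.7%) and lower (10.2%). Of 11 heat shock genes 6 were called higher in shNC2 and none lower (0 also at an unadjusted p under 0.05, and 0 by edgeR and DESeq2). DNAJB1, a co-chaperone of HSP70, rose from 137 ± 6.63 CPM (SD, n = 3) to 233 ± 2.39 CPM (SD, n = 2), a log2 difference of 0.76 (SE 0.04, limma adjusted p = 4.55e-12). Immediate early genes, which answer to growth factor signals within minutes, were called lower in 11 of 28 and higher in 4. EGR1 was at 285, 286 and 336 CPM in shNC1 and 151 and 149.8 CPM in shNC2 (2.01-fold lower, limma adjusted p = 3.86e-11), EGR3 fell by 0.98 on the log2 scale, and the ERK feedback genes DUSP6 and SPRY4 fell by 0.51 and 0.54, whereas KLF4 rose by 0.73. ATF3, a stress factor counted in the same list, fell by 0.72.

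Lipid synthesis genes divided. Of 31 sterol and fatty acid genes 15 were called higher, among them HSD17B7 (0.50) and INSIG1 (0.48), and 7 were called lower, among them the desaturases FADS1 (-0.28) and SCD (-0.23). Among 24 p53 target genes POLH (0.64) and DDB2 (0.45), both of DNA damage bypass or repair, were higher, and GDF15 (-0.96) and TP53I3 (-0.67) were lower, with 8 called higher and 3 lower. Of 21 tested NF-kB targets 4 were called higher and 6 lower, with NFKBIA at -0.49. The other lists had medians between -0.26 for the YAP targets (4 of 6 called lower) and 0.20 for the metallothionein genes (2 of 5 called higher). Interferon-stimulated genes (4 higher and 1 lower of 22), NRF2 targets (3 higher and 2 lower of 17) and mitochondrially encoded mRNAs (1 higher and 3 lower of 13) lay between these, with shares called higher and lower of 18.2% and 4.55%, 17.6% and 11.8%, and 7.69% and 23.1%.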
